A study of Mus musculus with 6 samples.

Results

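The secreted ligands with which cardiomyocytes (CMs) signal to blood vessels were followed across all libraries. They are 7 genes, chosen as the rows of the count table whose Ensembl identifiers GENCODE M21 names *Vegfa*, *Vegfb*, *Vegfc*, *Pgf*, *Angpt1*, *Angpt2* and *Apln*, out of 54532 genes in the table. All 7 had counts in every library. A filter on low levels, a median log2 CPM (counts scaled to the size of each library, with TMM factors) above 1 in at least 1 group, kept 13323 genes, of which 6 are ligands. *Angpt2* was not kept, and its test comes from a fit without the filter.

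Wildtype ICR mice were given 1e+11 viral genomes of AAV9 under the skin at 6 d of age, and their hearts were taken at 9 d, 3 d later. The 3 viruses carried GFP, YAP5SA or YAP6SA behind the cTnT promoter, which restricts expression of the transgene to CMs, so control mice also received virus. YAP5SA is the transcriptional coactivator YAP with its 5 LATS kinase sites changed from serine to alanine, and YAP6SA carries a sixth such change, at the serine needed for contact with the TEAD DNA-binding factors. An antibody against PCM-1 was used to pull down CM nuclei, and libraries without strand information were made from the poly-A fraction of nuclear RNA. There were 2 libraries for every group, each from a separate batch, and the labels speak of 2 hearts per virus without saying which heart went into which library. The p-values measure the spread between these libraries.

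Gene counts per library ran from 14552847 to 19615627. The preparations matched their label: *Myh6* and *Tnnt2*, which encode the CM proteins alpha myosin heavy chain and cardiac troponin T, were at 8636 to 27954 CPM and at 10633 to 21092 CPM. The defining markers of other heart cells were present at far lower levels in all libraries. *Pecam1* and *Cdh5* of endothelial cells were at 31.8 to 53.2 and 42.3 to 55.1 CPM, *Pdgfrb* of mural cells at 55.4 to 68.9, *Myh11* of smooth muscle at 6.05 to 21.3, *Pdgfra* of fibroblasts at 14.4 to 35.8 and *Ptprc* of leukocytes at 7.18 to 13.5. Markers of 1 cell type differed widely in level. Endothelial ones ran from *Erg*, at 5.61 to 11.3 CPM, to *Egfl7*, at 228 to 381. Fibroblast and epicardial ones ran from *Upk3b*, at 2.84 to 9.11, to *Col3a1*, at 323 to 721. The mural marker *Abcc9* was at 155 to 386 CPM, and the smooth muscle markers *Smtn* and *Acta2* were at 475 to 1131 and 141 to 1835. The CM marker *Pcm1* was at 52.8 to 74.4 CPM. In bulk RNA of this kind, fewer cells of a type and less RNA per cell cannot be told apart.

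The VEGF family ligands bind receptor tyrosine kinases of endothelial cells. VEGFA, acting through KDR (VEGFR2), is the chief signal for vessel sprouting and permeability, VEGFB and PlGF (*Pgf*) bind FLT1 (VEGFR1), and VEGFC drives lymphatic growth through FLT4 (VEGFR3). Angiopoietin 1 activates the receptor TEK (TIE2) and stabilises vessels, angiopoietin 2 can oppose it there, and apelin acts through the G protein-coupled receptor APLNR. In the heart, CMs are the known main source of VEGFA and VEGFB for the dense capillary bed between them, and hypoxia-inducible factors (HIFs) raise *Vegfa* transcription when oxygen is short.

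The starts of *Vegfa* and *Vegfb* are shown because these 2 genes carry most of the ligand RNA. The 250 bases before the RefSeq transcript start are given 5′ to 3′ on the gene's own strand (GRCm38.p6, minus strand for both, chr17:46032378-46032627 and chr19:6987652-6987901). Capitals mark the core letters of the HIF response element, ACGTG or GCGTG, on either strand.

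Vegfa: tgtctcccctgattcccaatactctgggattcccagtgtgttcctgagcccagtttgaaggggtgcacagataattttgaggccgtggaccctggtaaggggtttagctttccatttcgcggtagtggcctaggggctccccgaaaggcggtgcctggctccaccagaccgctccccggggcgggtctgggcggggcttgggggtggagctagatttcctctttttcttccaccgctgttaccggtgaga

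Vegfb: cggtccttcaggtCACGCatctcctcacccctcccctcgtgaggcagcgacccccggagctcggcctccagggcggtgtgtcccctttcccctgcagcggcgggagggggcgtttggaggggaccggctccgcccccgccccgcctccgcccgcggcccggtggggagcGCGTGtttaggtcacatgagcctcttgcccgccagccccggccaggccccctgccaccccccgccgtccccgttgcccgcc

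The *Vegfb* window held 2 matches to GCGTG, which start 237 bases before the transcript start on the opposite strand and 81 bases before it on the gene's strand. The *Vegfa* window held 0 matches, and a second RefSeq start inside *Vegfa* had 2 in its window. That second window (46025164 to 46025413) is itself part of the gene body. Bases further than 250 before a start were not searched. Of all 32851 windows of this length, 38.6% held at least 1 such core. In all, 5 of the 7 ligands matched the RefSeq table, with 7 windows between them, of which 3 held a core. The TEAD motif GGAATG and the AP-1 motif TGANTCA were searched on both strands in the same windows and had no match in any of them, against 12.6% and 6.75% of all windows. A match or its absence in these letters says nothing of binding.

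*Vegfa* (ENSMUSG00000023951, chromosome 17, 46016993 to 46032369, minus strand, GRCm38) was counted 51942 times in batch 1 and 44840 times in batch 2 with GFP, 54372 and 45417 times with YAP6SA, and 30161 and 29742 times with YAP5SA. Values are given in this batch order throughout. In CPM these were 2721 and 2919 in GFP, 2756 and 2744 in YAP6SA overexpressing (OE) CMs, and 1991 and 1661 in YAP5SA OE CMs. Both YAP5SA libraries lay below all 4 others, whose values differed little. By CPM per kilobase of exon, *Vegfa* ranked between 19 and 30 among all genes in the GFP and YAP6SA libraries, and at 34 and 40 in the YAP5SA libraries. Its mean was 2820 ± 140 CPM in GFP (SD, n = 2 libraries), 2750 ± 8.34 with YAP6SA and 1826 ± 233 with YAP5SA.

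The *Vegfa* level in YAP5SA OE CMs was 64.6% of that in GFP, a log2 fold change of -0.63 (SE 0.21, 95% confidence interval -1.10 to -0.16), and it did not pass the threshold of 0.05 (edgeR quasi-likelihood test over all genes kept, FDR 0.056). Within batches 1 and 2, the log2 difference was -0.45 and -0.81. Of 9 other ways of fitting all 6 or the 4 compared libraries, 5 called it lower, with FDR from 0.000696 to 0.195. With each library left out in turn, the log2 fold change ran from -0.78 without YAP5SA replicate 1, the 1 such fit of 6 that called it (FDR 0.00155), to -0.46 without YAP5SA replicate 2, and the FDR reached 0.424 without GFP replicate 2. Against YAP6SA OE CMs the log2 fold change was -0.59 (SE 0.21, FDR 0.0852), called in 4 of the 9 other fits. It then ran from -0.74 without YAP5SA replicate 1, again the 1 call of 6 (FDR 0.00281), to -0.43 without YAP5SA replicate 2, with its highest FDR, 0.646, when YAP6SA replicate 2 was removed. For YAP6SA against GFP the log2 fold change was -0.04 (SE 0.21, 95% confidence interval -0.50 to 0.43, FDR 0.989).

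*Vegfb* (ENSMUSG00000024962, chromosome 19, 6982473 to 6987651, minus strand), which encodes a FLT1 ligand that is abundant in heart muscle, had 3935 and 2893 counts in GFP, 3724 and 3153 in YAP6SA and 1992 and 1880 in YAP5SA. The CPM values were 206 and 188 in GFP, 189 and 191 in YAP6SA, and 131 and 105 in YAP5SA OE CMs. Again both YAP5SA libraries stood below all others, and the GFP and YAP6SA values overlapped.

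*Vegfb* fell in YAP5SA OE CMs to 59.8% of GFP, a log2 fold change of -0.74 (SE 0.15, 95% confidence interval -1.08 to -0.40, FDR 0.00882), and to 62.0% of YAP6SA, a log2 fold change of -0.69 (SE 0.15, FDR 0.0162). It was the 1 ligand of the 6 kept that was called in either comparison, where 22% and 14.7% of all 13323 genes were called and 9.18% and 5.68% were called lower. Both batches showed the fall, by -0.65 and -0.84 against GFP and by -0.52 and -0.86 against YAP6SA. All 9 other fits called it in both comparisons, with FDR up to 0.0234 and 0.0437. The call against GFP was lost without GFP replicate 1 (FDR 0.0555) or GFP replicate 2 (FDR 0.0919), and that against YAP6SA without YAP6SA replicate 1 (FDR 0.0516) or YAP6SA replicate 2 (FDR 0.274). In YAP6SA OE CMs, *Vegfb* differed from GFP by -0.05 (SE 0.15, 95% confidence interval -0.39 to 0.29, FDR 0.971).

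**Figure D1:**
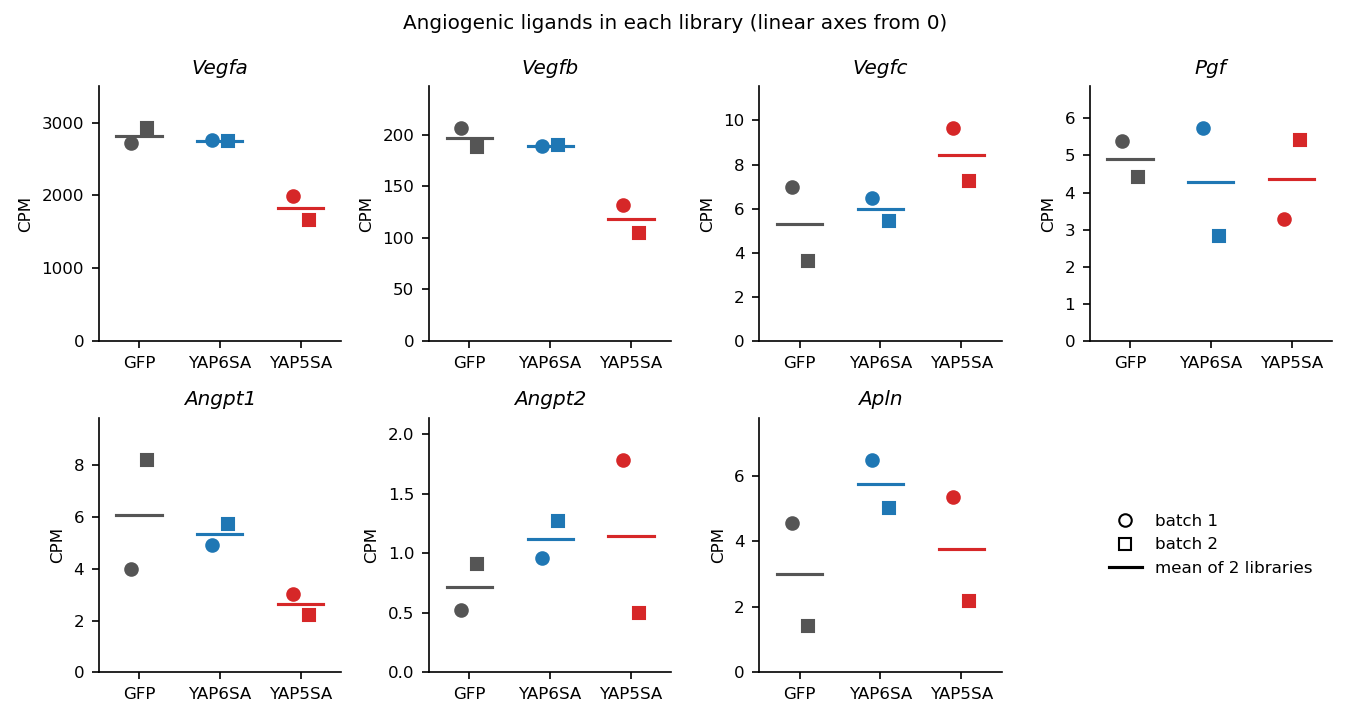
CPM of each ligand (linear axes from 0) in the 6 libraries, with circles for batch 1, squares for batch 2 and a line at the mean of the 2 libraries of a group. Both YAP5SA libraries lie below all others for *Vegfa*, *Vegfb* and *Angpt1* and above all others for *Vegfc*, while *Pgf*, *Angpt2* and *Apln* show overlap between YAP5SA and GFP.

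The sum of CM markers was also lowest in the YAP5SA libraries, though few of the markers were called. The summed CPM of 10 CM markers was 50592 and 68142 in GFP, 49276 and 63043 in YAP6SA, and 43137 and 31760 in YAP5SA OE CMs, with none of the 10 at 0 in any library. Of the 10, 1 fell in YAP5SA against GFP, the calcium release channel gene *Ryr2* (log2 fold change -0.81, FDR 0.0455, and 0.101 to 0.499 without GFP replicate 2, either YAP6SA library or YAP5SA replicate 2), and the median log2 fold change of the list was -0.47, against -0.00 over all genes. In the main fit of YAP5SA against GFP, 9.18% of all genes fell. DESeq2 called 3 of the 10, limma-voom 4 and the fit of 4 libraries 0. The log2 fold change was above 0 for 2 of them, the ventricular light chain gene *Myl3* (0.12) and *Pcm1* (0.24), which encodes the antigen used to pull down the nuclei. For each 1000 CPM of these markers, *Vegfa* was at 53.8 and 42.8 in GFP, 55.9 and 43.5 in YAP6SA and 46.1 and 52.3 in YAP5SA. *Vegfb* on the same scale was at 4.07 and 2.76, 3.83 and 3.02, and 3.05 and 3.30. On this scale both YAP5SA libraries lay within the range of the other 4 for each gene. This ratio was chosen after seeing the data. The 2 largest parts of the marker sum were *Myh6* and *Tnnt2*, with means of 22898 and 16281 CPM in GFP and 10840 and 12606 in YAP5SA. From GFP to YAP5SA the mean of *Myl2* went from 3674 to 3345 CPM and that of *Myl3* from 1188 to 1297. A ratio to other CM markers could therefore differ, and was not tested.

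The ratio of the 2 main ligands varied little between libraries. Per kilobase of exon, *Vegfa* exceeded *Vegfb* by 4.94 and 5.81 times in GFP, 5.47 and 5.40 times in YAP6SA and 5.67 and 5.93 times in YAP5SA. *Vegfa* made up 82.7% to 85.0% of the length-scaled level of the 4 VEGF ligands.

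*Vegfc* (ENSMUSG00000031520, chromosome 8, 54077606 to 54187096, plus strand) had 133 and 56 counts in GFP, 128 and 90 in YAP6SA, and 146 and 130 in YAP5SA, or 6.97 and 3.65, 6.49 and 5.44, and 9.64 and 7.26 CPM. It was the only ligand of the 6 kept that lay higher in both YAP5SA libraries than in all others, a pattern that 31.2% of genes showed against GFP and 28.6% against YAP6SA. The log2 fold change was 0.71 against GFP (SE 0.33, 95% confidence interval -0.03 to 1.44, FDR 0.153) and 0.49 against YAP6SA (SE 0.33, FDR 0.343), and neither passed the threshold. For YAP6SA against GFP it was 0.21 (SE 0.33, FDR 0.947). As a share of the 4 VEGF ligands per kilobase, *Vegfc* was at 0.370% and 0.186% in GFP, 0.346% and 0.291% in YAP6SA and 0.713% and 0.647% in YAP5SA OE CMs.

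*Pgf* (ENSMUSG00000004791, chromosome 12, 85166635 to 85177790, minus strand) had 103 and 68 counts in GFP, 113 and 47 in YAP6SA, and 50 and 97 in YAP5SA. Its values of 5.40 and 4.43, 5.73 and 2.84, and 3.30 and 5.42 CPM overlapped between all groups. The log2 fold change was -0.21 for YAP6SA against GFP (SE 0.45, FDR 0.96), -0.14 for YAP5SA against GFP (SE 0.45, FDR 0.858) and 0.07 for YAP5SA against YAP6SA (SE 0.46, FDR 0.934). The 95% confidence interval of YAP5SA against GFP ran from -1.15 to 0.87.

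*Angpt1* (ENSMUSG00000022309, chromosome 15, 42424723 to 42676977, minus strand) had 76 and 126 counts in GFP, 97 and 95 in YAP6SA and 46 and 40 in YAP5SA. These were 3.98 and 8.20 CPM in GFP, 4.92 and 5.74 in YAP6SA and 3.04 and 2.23 in YAP5SA OE CMs. Both YAP5SA libraries were below all others, as for *Vegfa* and *Vegfb*. With these 3 of the 6 ligands kept lower without overlap, 29.8% of all genes were so against GFP and 29% against YAP6SA.

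The *Angpt1* level in YAP5SA OE CMs was 45.2% of GFP, a log2 fold change of -1.15 (SE 0.44, 95% confidence interval -2.13 to -0.16, unadjusted p = 0.0268 by the edgeR test, FDR 0.0903). Batches 1 and 2 differed in size, at -0.38 and -1.82. Against YAP6SA it was at 50.1% (SE 0.44 on the log2 scale, FDR 0.155), and YAP6SA against GFP gave -0.15 (SE 0.42, FDR 0.97). The lower level against GFP was called in 2 of the 9 other fits. With each library left out in turn, the log2 fold change against GFP ran from -1.68 without YAP5SA replicate 1, the 1 such fit of 6 that called it (FDR 0.0142), to -0.56 without GFP replicate 2 (FDR 0.662). Against YAP6SA it ran from -1.56 without YAP5SA replicate 1, also the 1 call of 6 (FDR 0.0275), to -0.48 without YAP5SA replicate 2 (FDR 0.63). On the opposite strand, *Gm17473* overlaps 14.2% of the *Angpt1* exon bases. It had 5 counts in all libraries together, against 480 for *Angpt1*, and without strand information reads of the shared bases cannot be told apart.

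*Angpt2* (ENSMUSG00000031465, chromosome 8, 18690263 to 18741562, minus strand), which lies within *Mcph1* on the other strand with 0 shared exon bases, had 10 and 14 counts in GFP, 19 and 21 in YAP6SA, and 27 and 9 in YAP5SA. Its CPM of 0.524 and 0.911 in GFP lay below the 0.963 and 1.27 in YAP6SA, and the YAP5SA libraries, at 1.78 and 0.502, were the highest and the lowest of all. Without the filter, the log2 fold change was 0.63 for YAP6SA against GFP (SE 0.81, FDR 1), 0.60 for YAP5SA against GFP (SE 0.84, FDR 0.875) and -0.03 for YAP5SA against YAP6SA (SE 0.80, FDR 1). In that fit of 27396 genes, 0.529%, 12.8% and 10% of all genes were called.

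The ratio of *Angpt2* to *Angpt1* per kilobase was 0.186 and 0.157 in GFP, 0.276 and 0.312 in YAP6SA, and 0.828 and 0.317 in YAP5SA OE CMs. *Angpt1* thus exceeded *Angpt2* in all 6 libraries. The GFP ratios were below those of both variants, and YAP5SA replicate 1 stood apart from the other 5 libraries.

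*Apln* (ENSMUSG00000037010, chromosome X, 48025146 to 48034853, minus strand) had 87 and 22 counts in GFP, 128 and 83 in YAP6SA, and 81 and 39 in YAP5SA. In CPM these were 4.56 and 1.43, 6.49 and 5.02, and 5.35 and 2.18. In each group the batch 1 library was the higher, and the fitted batch 2 effect was -1.07 on the log2 scale (FDR 0.281). YAP6SA lay above GFP without overlap, while YAP5SA overlapped both.

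The *Apln* log2 fold change of YAP6SA against GFP was 1.11 (SE 0.44, 95% confidence interval 0.14 to 2.09, unadjusted p = 0.029 by the edgeR test), with 0.50 in batch 1 and 1.73 in batch 2. It did not pass adjustment (FDR 0.779, and 0.197 to 0.998 in the 9 other fits). Of the 6 ligands kept, edgeR called 0 in YAP6SA against GFP, where 0.045% of all genes were called, and *Apln* was the only 1 with an unadjusted p under 0.05, as 5.93% of all genes had. DESeq2 and limma-voom called 0 as well. Among genes kept, 17.4% lay higher in YAP6SA without overlap and 17% lower. YAP5SA against GFP gave 0.36 for *Apln* (SE 0.44, FDR 0.588), and YAP5SA against YAP6SA gave -0.75 (SE 0.43, FDR 0.268).

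**Figure D2:**
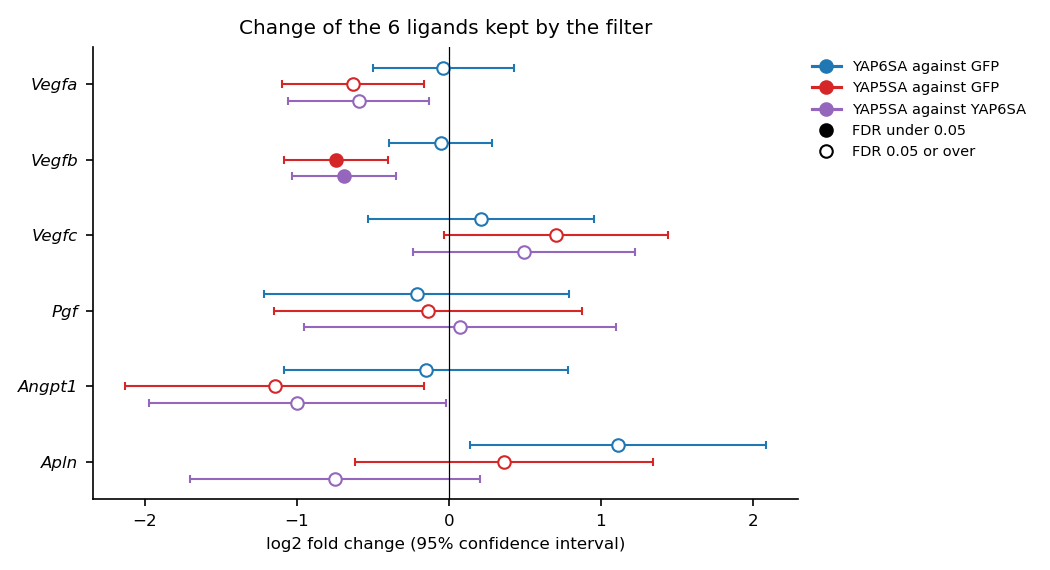
Fitted log2 fold change of the 6 ligands kept by the filter, with 95% confidence intervals, for YAP6SA against GFP, YAP5SA against GFP and YAP5SA against YAP6SA, with filled points at FDR under 0.05. The 2 filled points are *Vegfb* in YAP5SA against GFP (-0.74) and against YAP6SA (-0.69), and the intervals of *Vegfa* and *Angpt1* in both YAP5SA comparisons lie below 0.

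The order of the ligands by length-scaled level was the same at its top in every library. *Vegfa*, at 388 to 681 CPM per kilobase, was above *Vegfb*, at 65.4 to 128, and both were above the other 5. Of these, *Vegfc* had 1.49 to 3.93, *Pgf* 0.978 to 1.97, *Apln* 0.455 to 2.06, *Angpt1* 0.429 to 1.58 and *Angpt2* 0.136 to 0.483 CPM per kilobase. The ranges of *Vegfc*, *Pgf*, *Apln* and *Angpt1* overlapped, and their order was not the same in all libraries.

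Genes whose log2 CPM followed a ligand most closely over the 6 libraries were sought among 9903 or 9904 genes. For *Vegfa* these were *Gaa*, *Gpt* and *Dgat2* (Pearson r = 0.997 each). For *Vegfb* they were *Stard7*, *Kcnj2* and *Parp12* (0.998 each), and for *Vegfc* *Thoc3* (0.994), *Uba2* (0.993) and *Ppid* (0.992). *Angpt1* was followed by *Napa* (0.999), *Ccdc141* (0.996) and *Pcolce2* (0.995), and *Apln* by *Ccdc39* (0.993), *Zranb2* (0.986) and *Gm12940* (0.985). *Pgf* reached the lowest values, with *Tbc1d5* (0.960), *Eid2* (0.953) and *Mrpl57* (0.953). These are the highest values among all candidates, over 6 points that share groups and batches.

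**Figure D3:**
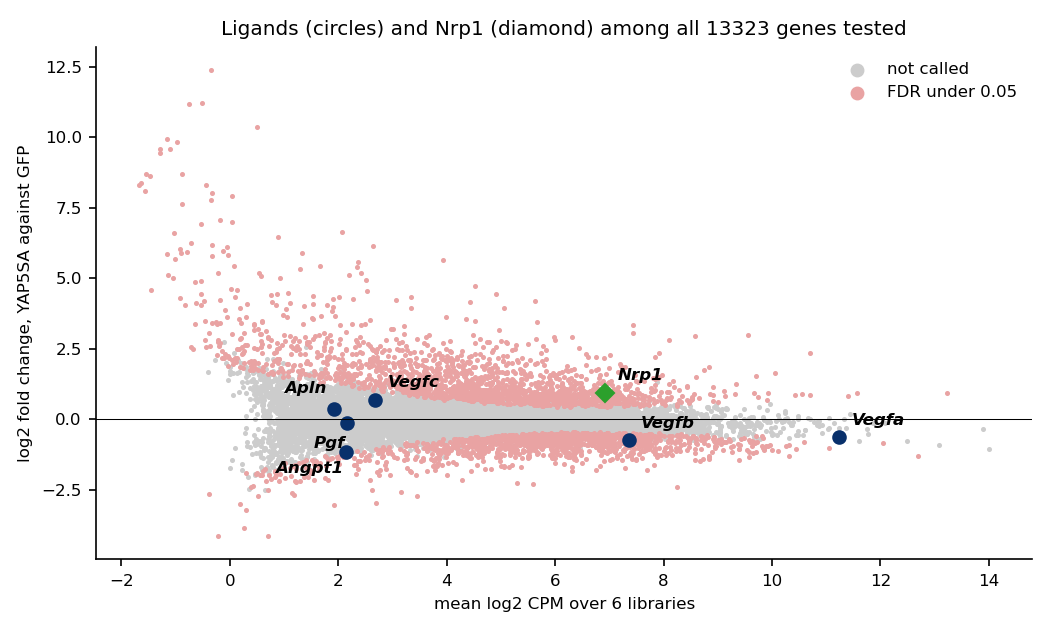
Fitted log2 fold change of YAP5SA against GFP by mean log2 CPM over the 6 libraries for all 13323 genes tested, pink where FDR was under 0.05, with the 6 ligands as dark circles and *Nrp1* as a diamond. *Vegfa* lies at the right edge among the most abundant genes at -0.63, *Vegfb* at -0.74, and the other 4 ligands lie at low levels.

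The receptors of these ligands are known mainly from endothelial cells. Of 9 receptors and coreceptors, all tested, 1 was called in each YAP5SA comparison, *Nrp1*. Of all genes, 22% were called against GFP and 14.7% against YAP6SA. *Nrp1* encodes neuropilin 1, a coreceptor for VEGF ligands and class 3 semaphorins. It had 1540 and 2180 counts in GFP, 1151 and 1910 in YAP6SA and 2453 and 4674 in YAP5SA, or 80.7 and 142, 58.3 and 115, and 162 and 261 CPM. *Nrp1* was higher in batch 2 in every group, and within each batch YAP5SA was the highest and YAP6SA the lowest.

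*Nrp1* rose in YAP5SA OE CMs by a log2 fold change of 0.94 against GFP (SE 0.15, FDR 0.00266) and of 1.32 against YAP6SA (SE 0.15, FDR 0.000781). Both calls held with each of the 6 libraries left out and were lost without the batch term (FDR 0.113 and 0.0595). For YAP6SA against GFP it was -0.38 (SE 0.15, FDR 0.779), the 1 receptor of 9 with an unadjusted p under 0.05, and edgeR, DESeq2 and limma-voom called 0 receptors there. The other 8 receptors were not called in any comparison. *Kdr* was at 46.8 to 58.7 CPM, *Flt1* at 12.8 to 21.2, *Flt4* at 4.65 to 11.5 and the coreceptor *Nrp2* at 14.3 to 20.6. *Tek* was at 31.1 to 48.0, the related *Tie1* at 59.0 to 82.0, *Ptprb*, a phosphatase that acts on TEK, at 17.1 to 34.8 and *Aplnr* at 12.7 to 19.2.

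**Figure D4:**
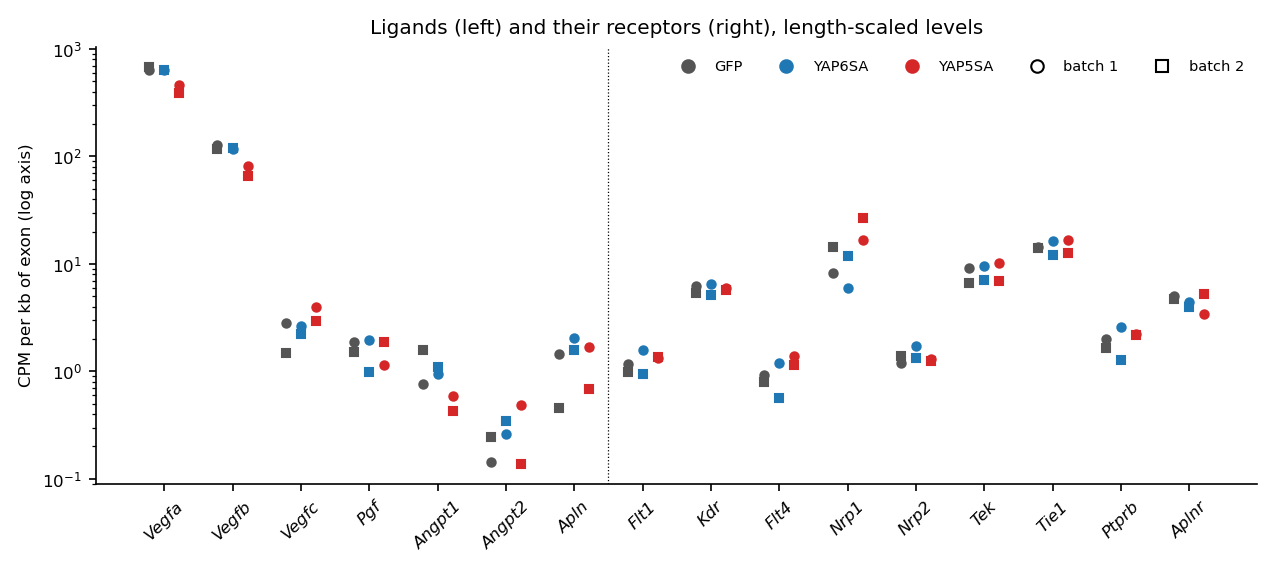
CPM per kilobase of exon (log axis) of the 7 ligands, left of the dotted line, and their 9 receptors and coreceptors, right, in the 6 libraries, coloured by group with circles for batch 1 and squares for batch 2. *Vegfa* and *Vegfb* stand above all receptors, the other 5 ligands lie below *Kdr*, *Nrp1*, *Tek* and *Tie1*, and *Nrp1* is highest in YAP5SA within each batch.

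Endothelial RNA could carry these receptors and part of *Angpt2* and *Apln*. The summed CPM of 12 endothelial markers was 764 and 601 in GFP, 973 and 637 in YAP6SA and 809 and 627 in YAP5SA. The groups overlapped, but within each batch both variants were above GFP. The log2 fold change was above 0 for 10 of the 12 in YAP6SA against GFP and for 9 in YAP5SA against GFP, with none of the 12 at 0 counts in any library. The main edgeR fit, DESeq2 and limma-voom called 0 of the 12 in all comparisons. In edgeR 2, 0 and 1 had an unadjusted p under 0.05 for YAP6SA against GFP, YAP5SA against GFP and YAP5SA against YAP6SA. In YAP6SA against GFP the likelihood ratio test and the edgeR fits without the filter and of the 4 libraries compared each called 1. Of 8 markers of endothelial tip cells, a list that holds *Angpt2* and *Apln* themselves, 6 were tested and 0 were called by these tools in any comparison, with 1, 1 and 0 under that unadjusted p. The summed level of that list was 87.0 and 80.7 CPM in GFP, 109 and 76.5 in YAP6SA and 97.1 and 106 in YAP5SA. The part of endothelial RNA in the *Apln* and *Angpt2* values was not tested.

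The remaining ligands of the same receptors were few. *Vegfd*, a second ligand of FLT4, had 104 and 40 counts in GFP, 77 and 73 in YAP6SA and 74 and 134 in YAP5SA, and was not called. *Angpt4*, an angiopoietin that also binds TEK, had 1 and 0 counts in GFP, 3 and 0 in YAP6SA, and 24 and 13 in YAP5SA. That is a ratio of 38.6 over GFP (95% counting interval 6.50 to 1563) and of 13.5 over YAP6SA (4.28 to 68.6). *Angpt4* was not kept by the filter, and without it was called against GFP (FDR 0.0467) and not against YAP6SA (FDR 0.126). *Apela*, the second ligand of APLNR, had at most 2 counts in a library.

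Of 9 regulators of the HIF pathway, which control *Vegfa* in hypoxia, 8 were tested. In YAP5SA against GFP, 1 rose and 1 fell, where 12.8% of all genes rose and 9.18% fell. The median log2 fold change of the list was -0.09. *Egln3* encodes a prolyl hydroxylase that marks HIF proteins for breakdown and is itself induced by HIF. It had 443 and 342 counts in GFP, 835 and 608 in YAP6SA and 551 and 605 in YAP5SA. It rose by 0.63 in YAP5SA against GFP (SE 0.18, FDR 0.0303). The rise was not particular to YAP5SA. Mean *Egln3* was higher still with YAP6SA, at 39.5 CPM, than with YAP5SA (35.1) or the control virus (22.7). *Epas1*, which encodes HIF-2 alpha, had 702 and 483 counts in GFP, 670 and 492 in YAP6SA, and 416 and 272 in YAP5SA, and fell by 0.72 (FDR 0.0394). Both calls were lost in the fit of the 4 libraries compared (FDR 0.0683 and 0.0519) and depended on single libraries. *Egln3* kept its call only without YAP5SA replicate 1, with FDR 0.0563 to 0.193 without any of the others, and *Epas1* lost its call without GFP replicate 1 (FDR 0.0866), GFP replicate 2 (FDR 0.314) or YAP5SA replicate 2 (log2 fold change -0.40, FDR 0.243). In YAP5SA against YAP6SA the main edgeR fit, DESeq2 and limma-voom called 0 of the 8 (2 at an unadjusted p under 0.05 in edgeR). In YAP6SA against GFP they also called 0 (2 under that p). There the likelihood ratio test and the edgeR fits without the filter and of the 4 libraries compared each called 1.

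Genes that hypoxia induces did not move in 1 direction. Of 15, all tested, 5 rose and 2 fell in YAP5SA against GFP, the median log2 fold change was -0.06, and 22% of all genes were called there. *Slc2a1*, the glucose transporter GLUT1, had 160 and 67 counts in GFP, 133 and 88 in YAP6SA and 282 and 910 in YAP5SA, and rose by 2.39 (FDR 0.0079). *P4ha1*, a collagen prolyl hydroxylase, rose by 1.49 (FDR 0.00304), *Ndrg1* by 1.15 (FDR 0.0311) and the glycolytic gene *Pgk1* by 0.75 (FDR 0.0112). *Hk2*, hexokinase 2, fell by 0.77 (FDR 0.0215) and *Pdk1*, which restrains entry of pyruvate into mitochondria, by 0.62 (FDR 0.0186). The highest *Slc2a1* value was that of YAP5SA replicate 2. Without that library the log2 fold change was 1.30 for *Slc2a1*, 0.97 for *P4ha1* and -0.46 for *Hk2*, and without YAP5SA replicate 1 it was 3.37 for *Slc2a1*. Without GFP replicate 2, *Slc2a1* (log2 fold change 1.62, FDR 0.0688), *Ndrg1* (FDR 0.247), *Pgk1* (FDR 0.0709), *Hk2* (FDR 0.24) and *Pdk1* (FDR 0.161) lost their calls. *Ndrg1*, *Pgk1* and *Pdk1* also lost theirs without GFP replicate 1 (FDR 0.102, 0.096 and 0.113), *Ndrg1*, *Hk2* and *Pdk1* without YAP5SA replicate 2 (FDR 0.141, 0.07 and 0.0709) and *Ndrg1* without YAP6SA replicate 1 (FDR 0.0513), while *P4ha1* was called with each of the 6 left out. Against YAP6SA 2 of the 15 rose, *Slc2a1* (2.49, FDR 0.00887, and 0.0813 without YAP6SA replicate 2) and *P4ha1* (1.54, FDR 0.00357). Over all genes 9% rose in YAP5SA against YAP6SA. In YAP6SA against GFP the main edgeR fit, DESeq2 and limma-voom called 0 of the 15, with 3 at an unadjusted p under 0.05 in edgeR. The edgeR fit of the 4 libraries compared called 2 there.

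Some other secreted factors known to act on vessels rose in YAP5SA OE CMs. Of 20 genes listed as other angiogenic ligands, 18 were tested. The list holds *Fgf12*, whose protein is not a secreted ligand, and *Adm*, which is also among the hypoxia-induced genes. In YAP5SA against GFP 7 rose and 1 fell, where 12.8% of all genes rose and 9.18% fell. The median log2 fold change of the list was 0.51. *Ccn2* and *Ccn1*, matricellular proteins and standard YAP-TEAD target genes, rose by 3.33 (FDR 0.000998) and 1.96 (FDR 0.00528). *Ccn2* had 1896 and 653 counts in GFP, 1911 and 2186 in YAP6SA, and 7640 and 17091 in YAP5SA. *Nrg1*, a growth factor for CMs that endothelial cells usually supply, rose by 2.38 (FDR 0.0177). It had 45 and 23 counts in GFP, 59 and 11 in YAP6SA and 112 and 203 in YAP5SA. The filter kept *Nrg1* only through the YAP5SA group, so it could be tested only by being high there. *Fgf18* rose by 1.59 (FDR 0.0146), while *Fgf9* fell by 0.69 (FDR 0.0274). *Fgf9* had 907 and 824 counts in GFP, 431 and 606 in YAP6SA and 399 and 669 in YAP5SA. Mean *Fgf9* was as low with YAP6SA, at 29.2 CPM, as with YAP5SA (31.8), against 50.6 with the control virus. *Ccn2* and *Ccn1* were called with each library left out, at log2 fold changes of 2.47 (without GFP replicate 2) to 4.39 (without GFP replicate 1) for *Ccn2* and 1.19 (without YAP5SA replicate 2) to 2.70 (without YAP5SA replicate 1) for *Ccn1*. Without GFP replicate 2, *Nrg1* (FDR 0.103), *Fgf18* (FDR 0.0699) and *Fgf9* (FDR 0.0664) lost their calls, as did *Fgf18* (FDR 0.105) and *Fgf9* (FDR 0.309) without GFP replicate 1 and *Nrg1* (log2 fold change 1.34, FDR 0.149) without YAP5SA replicate 2. Against YAP6SA 8 of the 18 rose and 0 fell, where 9% of all genes rose and 5.68% fell. In YAP6SA against GFP the main edgeR fit, DESeq2 and limma-voom called 0, with 2 at an unadjusted p under 0.05 in edgeR. There the likelihood ratio test called 1, and the edgeR fits without the filter and of the 4 libraries compared each called 2.

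A mixed list of 17 genes, named for angiogenesis inhibitors and guidance ligands, was not sorted by whether a gene restrains or promotes vessels. In YAP5SA against GFP 7 rose and 0 fell, where 12.8% of all genes rose and 9.18% fell. *Sema3e* is among the 7 but was kept by the filter only through the YAP5SA group, so it could be tested only by being high there. This list, like the others, was chosen with earlier results of these data known. The median log2 fold change of the list was 0.95. *Thbs1*, thrombospondin 1, had 227 and 31 counts in GFP, 414 and 132 in YAP6SA and 489 and 1941 in YAP5SA, and rose by 3.62 (SE 0.81, FDR 0.0124). *Sema3e*, a repellent semaphorin that signals through plexin D1, had 0 and 0 counts in GFP, 4 and 0 in YAP6SA, and 41 and 228 in YAP5SA, which is at least 93.4-fold higher than a floor of 3 counts over the GFP group. *Adamts1*, a protease that can sequester VEGF, rose by 1.65 (FDR 0.0053), and *Spry1*, an intracellular brake on growth factor signalling, by 1.64 (FDR 0.00628). DESeq2 did not call *Sema3e* (FDR 0.0947), and without GFP replicate 2 *Thbs1* (log2 fold change 2.37, FDR 0.0611) and *Spry1* (FDR 0.0626) lost their calls. Without YAP5SA replicate 2 the rise was 1.67 for *Thbs1* and 0.92 for *Spry1*, and without YAP5SA replicate 1 it was 5.25 for *Thbs1*. Against YAP6SA also 7 rose and 0 fell, where 9% of all genes rose and 5.68% fell. *Sema3c*, another semaphorin, rose there by 1.32 (FDR 0.0116). In YAP6SA against GFP the main edgeR fit, DESeq2 and limma-voom called 0 of the 17, with 1 at an unadjusted p under 0.05 in edgeR. The edgeR fits without the filter and of the 4 libraries compared each called 2 there.

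Markers of other cells of the heart were counted as well. In YAP5SA against GFP, 12.8% of all genes rose and 9.18% fell. The mural cell list of 8 was at 502 and 573 summed CPM in GFP, 573 and 595 in YAP6SA, and 433 and 342 in YAP5SA OE CMs, with 1 called lower in YAP5SA against GFP, *Abcc9* (log2 fold change -0.81, FDR 0.0287), a potassium channel subunit that CMs express too, whose call was lost without GFP replicate 2 (FDR 0.324) or YAP5SA replicate 2 (FDR 0.148). *Abcc9* alone had 271 and 386 CPM in GFP, 310 and 372 in YAP6SA and 215 and 155 in YAP5SA. The other 7 mural markers summed to 231 and 187 CPM in GFP, 263 and 222 in YAP6SA and 218 and 186 in YAP5SA, so that without *Abcc9* the YAP5SA and GFP ranges overlapped. This sum was formed after seeing the data. The part of mural cells, which are known to make *Angpt1*, in the *Angpt1* values was not tested.

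The smooth muscle list of 6 was at 1199 and 1226 summed CPM in GFP, 2422 and 2392 in YAP6SA and 2513 and 1843 in YAP5SA. *Smtn* of this list was at 911 and 1077 CPM in GFP, 849 and 1131 in YAP6SA and 648 and 475 in YAP5SA. *Acta2*, smooth muscle alpha actin, which immature CMs also express, had 271 and 141 CPM in GFP and 1553 and 1251 in YAP6SA, and rose there (log2 fold change 2.83, FDR 0.00222). Of the 4 smooth muscle markers tested, 3 rose and 1 fell in YAP5SA against GFP. The 11 fibroblast and epicardial markers, at 1397 and 885 CPM in GFP, 1820 and 1009 in YAP6SA and 1608 and 1074 in YAP5SA, had 1 call in YAP5SA against GFP, a rise of *Wt1* (3.17, FDR 0.000232). Of 8 macrophage markers 7 were tested, and 1 rose there, *C1qa* (0.96, FDR 0.0228, and 0.105 to 0.135 without either GFP library or YAP5SA replicate 2), with the list at 61.3 and 87.6, 73.6 and 101, and 86.6 and 121 CPM. Both of these lists were higher in each variant than in GFP within each batch. Of 4 lymphatic markers 3 were tested, and *Pdpn* rose (4.28, FDR 0.00145) while *Prox1* fell (-0.92, FDR 0.00633). The filter kept *Pdpn* only through the YAP5SA group, where it is high. The list was at 65.9 to 80.5 CPM in GFP, 63.1 to 65.4 in YAP6SA and 62.8 to 72.1 in YAP5SA. Mean *Prox1* was 70.3, 61.1 and 37.3 CPM in these groups, and mean *Pdpn* 1.37, 1.55 and 27.7. *Lyve1* was at 1.27 to 2.77 CPM and *Ccl21a* had 0 counts in every library. The part of any of these cells in the ligand values was not tested.

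**Figure D5:**
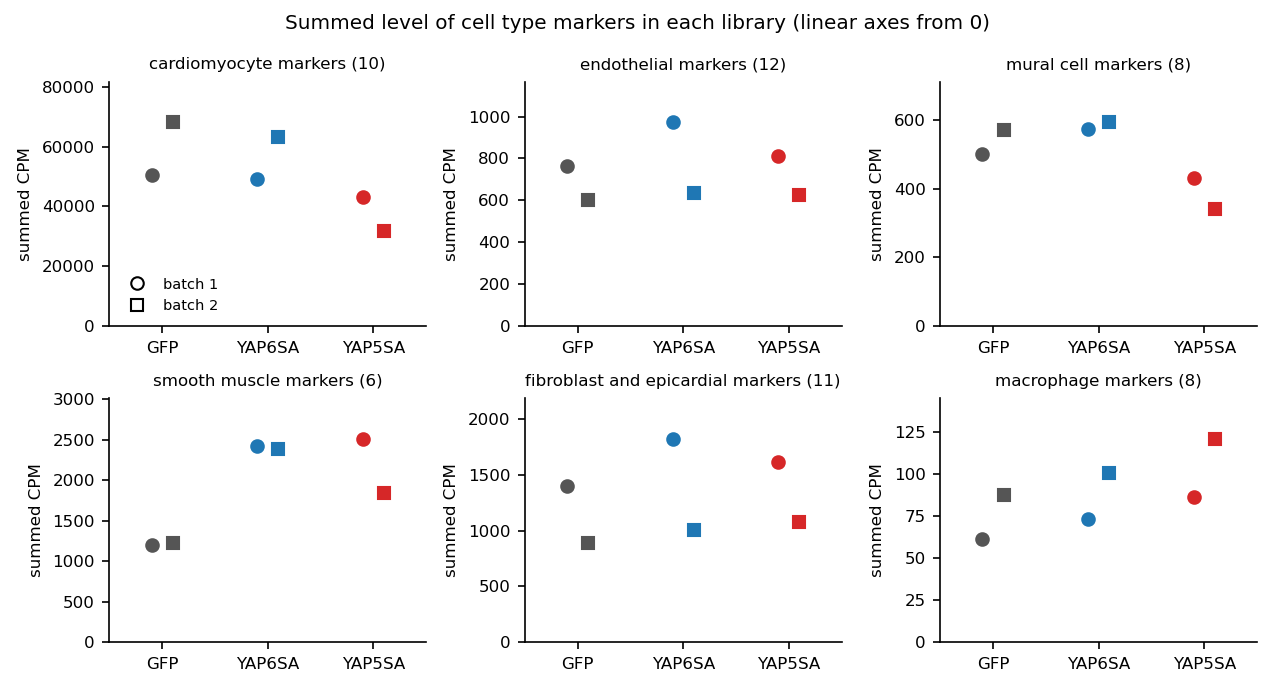
Summed CPM (linear axes from 0) of the marker lists of 6 heart cell types in the 6 libraries, with circles for batch 1 and squares for batch 2. Endothelial, fibroblast and macrophage lists overlap between groups but are higher in both variants than in GFP within each batch. The YAP5SA libraries are lowest for CM markers and, through *Abcc9*, for the mural cell list. The smooth muscle list is higher in both variants than in GFP through *Acta2*, while *Smtn* of that list is lower in YAP5SA.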

How the data were processed

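The poly-A RNA of CM nuclei in 6 libraries had been sequenced. The authors mapped reads with STAR to mm10 (GRCm38, Ensembl annotation) and deposited raw counts per gene, with no normalization or filter. STAR and edgeR are named in the submitters' processing notes. Reads outside genes (9.43% to 9.84% of a library), ambiguous (5.79% to 6.31%), multimapping (2.90% to 4.19%) and unmapped (3.03% to 3.63%) are not in the gene counts. Gene counts per library ran from 14552847 to 19615627.

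Gene names, coordinates and exon lengths came from GENCODE M21, and 37 genes had no name there. The ligands and the 15 gene lists were chosen with earlier results of these data known. Genes with a median log2 CPM over 1 in at least 1 group were kept. A single edgeR 4.0.16 model (R 4.3.3, TMM, quasi-likelihood) with terms for batch and group was fitted to all 6 libraries, and p-values were adjusted over all genes kept (Benjamini-Hochberg, threshold 0.05). The study's methods name edgeR, this filter and a batch covariate. The 2 YAP comparisons share the GFP libraries. Batch pairs the libraries: the labels give batch numbers equal to the replicate numbers, and deviations from group means correlated between libraries of a batch (r = 0.368 between GFP and YAP6SA, 0.0985 between GFP and YAP5SA, 0.175 between the variants). The pipeline was tested on simulated data.

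All ligands and receptors are named. Of the other lists, genes past the threshold and changed the same way in both batches were named, up to 4 in each direction by size of change, with the defining markers of each cell type. *Vegfd*, *Angpt4*, *Apela*, *Myl2*, *Myl3*, *Pcm1*, *Erg*, *Egfl7*, *Upk3b*, *Col3a1*, *Lyve1*, *Ccl21a*, and the genes overlapping a ligand, were named outside this rule after their values were seen. *Fgf12* and *Adm* were named outside this rule as well. The genes most like a ligand had a mean log2 CPM of at least 3 (prior count 2). Alternatives were DESeq2's RLE scaling or upper quartile scaling, no filter, a minimum of 10 counts per library, limma-voom (limma 3.58.1), DESeq2 1.42.0, a likelihood ratio test in edgeR, no batch term, fits of the 4 libraries compared, CPM without TMM factors, and each library left out in turn. With 1 library left in a group, that library is assumed to vary like the others. Promoter windows came from RefSeq (GRCm38.p6). Intervals and floors (3 counts) of low counts cover counting error only.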

Additional observations from a re-analysis of the deposited data

Results flagged for a closer look

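*Vegfb* is the 1 ligand for which the difference between YAP5SA and YAP6SA passed the threshold in the main fit. The difference of the 2 effects against GFP, tested as YAP5SA against YAP6SA in the 6-library fit, was -0.69 on the log2 scale (SE 0.15, edgeR quasi-likelihood test, FDR 0.0162), with -0.52 in batch 1 and -0.86 in batch 2. The lower level was seen in both YAP5SA libraries. With each library left out in turn, the difference ran from -0.81 to -0.54, and the call depended on single libraries, as given above. A ligand that was not called may still differ. In the 9 other fits this comparison gave -0.60 to -0.58 for *Vegfa*, called in 4. For *Angpt1* it gave -1.07 to -0.99, called in 0. Outlying samples within a group of 2 libraries were not sought.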

How the results depend on the processing

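No scaling moved the median log2 fold change of all genes by over 0.1. The number of ligands called in YAP5SA against GFP, 1, became 2 with upper quartile scaling, DESeq2 or limma-voom and 3 without the filter or with the likelihood ratio test, and 0 to 3 with a library left out, 0 without GFP replicate 1 or GFP replicate 2. Against YAP6SA, 1 became 2 without the filter and with the likelihood ratio test, DESeq2 or limma-voom, and 0 to 3 with a library left out, 0 without YAP6SA replicate 1 or YAP6SA replicate 2. In YAP6SA against GFP, 6 calls over all genes became 145 without the filter, 82 with the likelihood ratio test, 55 with DESeq2, 276 with only the 4 libraries and 6 to 213 with a library left out, and the 1 call among the 136 other listed genes became 8, 4, 1, 11 and 1 to 10.

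Without the replicate block, the pairing by batch, these 2 counts were 0 and 0, those of YAP5SA against YAP6SA went from 1956 to 1152 over all genes and from 25 to 13 over the listed genes, and *Nrp1*, *Epas1*, *Ndrg1*, *Pdk1*, *Fgf9*, *Ryr2* and *C1qa* lost calls, as *Acta2* did in YAP6SA against GFP, while *Vegfb* kept both. With a library left out, YAP5SA against GFP gave 738 to 4863 calls over all genes and 12 to 49 over the listed genes, and YAP5SA against YAP6SA 396 to 4160 and 6 to 38. Without TMM factors, the YAP6SA means were 2708 CPM for *Vegfa* and 187 for *Vegfb*, against 2750 and 190 with them. The GFP and YAP5SA means without these factors are not given here, so these values do not compare groups.

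With a library left out, direction turned only for differences that had not passed. The log2 fold change of YAP6SA against GFP then ran from -0.15 to 0.084 for *Vegfa* (turned without GFP replicate 2), -0.18 to 0.064 for *Vegfb* (YAP6SA replicate 1), -0.064 to 0.53 for *Vegfc* (GFP replicate 2), -0.91 to 0.31 for *Pgf* (YAP6SA replicate 2) and -0.66 to 0.46 for *Angpt1* (GFP replicate 2). That of *Pgf* ran from -0.87 to 0.48 in YAP5SA against GFP (YAP5SA replicate 1) and from -0.62 to 0.73 in YAP5SA against YAP6SA (-0.51 without YAP6SA replicate 2, -0.62 without YAP5SA replicate 2). Per summed CM markers, an alternative chosen after seeing the data, the log2 ratio of means against GFP was 0.042 (YAP6SA) and 0.027 (YAP5SA) for *Vegfa* and 0.0030 (YAP6SA) and -0.11 (YAP5SA) for *Vegfb*, against -0.74 for the last without this scaling. Without *Abcc9*, also chosen after seeing the data, the log2 ratio of summed mural cell markers in YAP5SA against GFP was -0.05, against -0.47 with it. The cause of these changes was not tested. *Vegfc*, *Pgf*, *Angpt1*, *Angpt2* and *Apln* had 9 to 146 counts a library, and what part of their SE is counting error was not tested.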
